A study of Populus x canadensis with 3 samples.

Results

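The miR172 family was taken as every sequence in a small RNA table of poplar roots whose name holds miR172, in any case, and does not go on with another digit. By this rule it had 10 of the 472 distinct sequences of the table, listed in 18 of its 673 entries. Each entry holds 1 name and its sequence, and the same name and sequence can fill several entries. The roots were those of the hybrid poplar Populus × euramericana "Neva", grown from cuttings in water culture for 60 days. For 3 days they were given para-hydroxybenzoic acid (pHBA), a phenolic acid, at 0, 2 or 4 mML-1, a unit read here as millimolar. PHBA 0 (no pHBA), PHBA 2 and PHBA 4 name the libraries by dose, and all come from the same cultivar and tissue. RNA of each treatment was pooled in equal parts, so each dose is 1 library. Differences between doses therefore cannot be set against a spread between replicates and carry no p-value. Intervals in brackets are at 95% and reflect the counting of reads alone. The table holds no mRNA, so the labelled tissue could not be checked against root markers.

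Plant miR172 guides the repression of APETALA2-like (AP2) transcription factors, both by slicing the mRNA and by blocking its translation. In Arabidopsis it promotes the adult phase and flowering, and it stands downstream of miR156, which represses the SPL factors that activate miR172 genes. In legume roots miR172 also acts in nodule formation. The guide strand comes from the 3p arm of the hairpin, and the 5p arm gives the partner strand of the duplex, which usually is discarded.

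The members that carry the results are shown first, because the strand and single bases tell them apart. Each is written 5′ to 3′ as in the authors' deposited table, with T for U, and capitals mark the seed, bases 2 to 8. A name with miR is a registered mature sequence and a name with MIR and p5 or p3 is a hairpin strand that is not. The prefix ptc stands for Populus trichocarpa, vvi for grapevine and nta for tobacco. The 4 sequences of the 3p strand share 1 seed, and all but ptc-miR172g-3p were placed on that strand by this seed.
ptc-miR172a: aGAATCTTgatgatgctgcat
ptc-miR172d: gGAATCTTgatgatgctgcat
ptc-miR172g-3p: gGAATCTTgatgatgctgcag
vvi-miR172d_L-2R+1: aGAATCTTgatgatgctgcatt
The 5 sequences of the 5p strand, placed by name, have 5 different seeds.
ptc-MIR172e-p5: gCGGCAGCatcaagattcaca
ptc-miR172h-5p: gGAGCACCatcaagattcaca
ptc-miR172b-5p: gGAGCATCatcaagattcaca
ptc-MIR172c-p5 and ptc-MIR172a-p5: gCAGCATCatcaagattcaca
ptc-MIR172d-p5: cGGCATCAtcaagattcacaa
The last member bears the names of both strands of a tobacco hairpin.
nta-MIR172f-p3_2ss14CG18TA and nta-MIR172f-p5_2ss14CG18TA: tTGGAACGatacagagaa

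Sequence bore out the family label for 9 of the 10 members. Counted from 1 at the 5′ end, ptc-miR172d differs from ptc-miR172a by G1A, the base of ptc-miR172d first, and from ptc-miR172g-3p by T21G. The grapevine-named sequence is ptc-miR172a with 1 more T at its 3′ end, and the 2 share a run of 21 bases. The run gaatcttgatgatgctgca, of 19 bases, stands in all 4 sequences of the 3p strand and in no other sequence of the table. On the 5p strand, catcaagattcaca, of 14 bases, stands in all 5 sequences and again in no other.

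The 5p sequences can pair with the 3p sequences as the strands of a miRNA duplex do. Laid antiparallel and without gaps, ptc-MIR172e-p5 and ptc-miR172d leave 2 bases free at each 3′ end, and 17 of the 19 positions between them pair, 1 of these as a G-U pair. The sequence of ptc-MIR172c-p5 and ptc-MIR172a-p5 pairs at 18 of 19, ptc-miR172b-5p at 17 and ptc-miR172h-5p at 16. ptc-MIR172d-p5 is shifted by 1 base and pairs at 17 of 18 positions.

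The tobacco-named member stood apart. It is 18 nt long, while the other 9 are 21 or 22 nt. Its longest run shared with any other member is 4 bases, against 14 to 21 bases for each of the others. In its best ungapped pairing with a 3p sequence 12 of 18 positions pair, 4 of them as G-U. It was listed at 0 in PHBA 0 and PHBA 2, while PHBA 4 held 17.3 normalized reads, the unit being the authors' read value times 1 constant per library. The same letters occur in the U6 spliceosomal RNA of plants, as textbook background. No U6 sequence was read here, and the origin of these reads was not tested. Other short sequences were high in the same library. Of the 25 sequences of 18 nt in the table, 10, this one included, were at 0 in PHBA 0 and PHBA 2 and above 0 in PHBA 4. For 18 and 19 nt together the count was 14 of 56. Among all 472 sequences 51 were at 0 in PHBA 0, so no more than 51 can have that pattern. Sequences of 18 and 19 nt held 0.329%, 0.670% and 3.60% of reads over the 3 doses.

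Counting each sequence once, the table holds 1434442 reads for PHBA 0, 542913 for PHBA 2 and 380800 for PHBA 4. The last library therefore has the widest counting intervals. Some counts are fractions, and reads that fit several entries appear to have been shared out between them. Summed over all its entries, the miR172 family came to 3129, 1234 and 891 reads, all whole within 0.001 reads, and so did each of its strands. Over all entries, 86 of 102 numbered families had whole sums in all 3 libraries, against 57 with each sequence counted once. A sequence with several entries therefore appears to hold more reads than its value at 1 entry. Levels are given per entry, and sums are given both ways.

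In sum the family was a small part of the table. Each sequence counted once, it held 0.130% of reads for PHBA 0 (Wilson interval 0.124 to 0.136), 0.137% for PHBA 2 (0.128 to 0.147) and 0.119% for PHBA 4 (0.109 to 0.131). By summed normalized reads it ranked 31 of 102 families for PHBA 0, 33 for PHBA 2 and 38 for PHBA 4, or 27, 29 and 34 over all entries. Its neighbours in PHBA 0 were miR6457 at 1141 and miR6427 at 787 normalized reads, both outside its interval (889 to 974). In PHBA 2 miR6427 (979) and miR6457 (901) had intervals that overlapped that of miR172 (895 to 1035), and in PHBA 4 miR6462 (696) and miR398 (674) overlapped its interval of 621 to 748.

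Between the doses, the 3p strand kept almost the same level as deposited, and the 5p strand was lower at the higher dose. The 3p strand summed to 513 normalized reads at dose 0, 493 at dose 2 and 499.6 at dose 4. The 5p strand summed to 418, 470.2 and 165.0. PHBA 4 stood apart from the other 2 libraries on the 5p strand, and on the 3p strand the counting intervals of all 3 libraries overlapped.

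**Figure D1:**
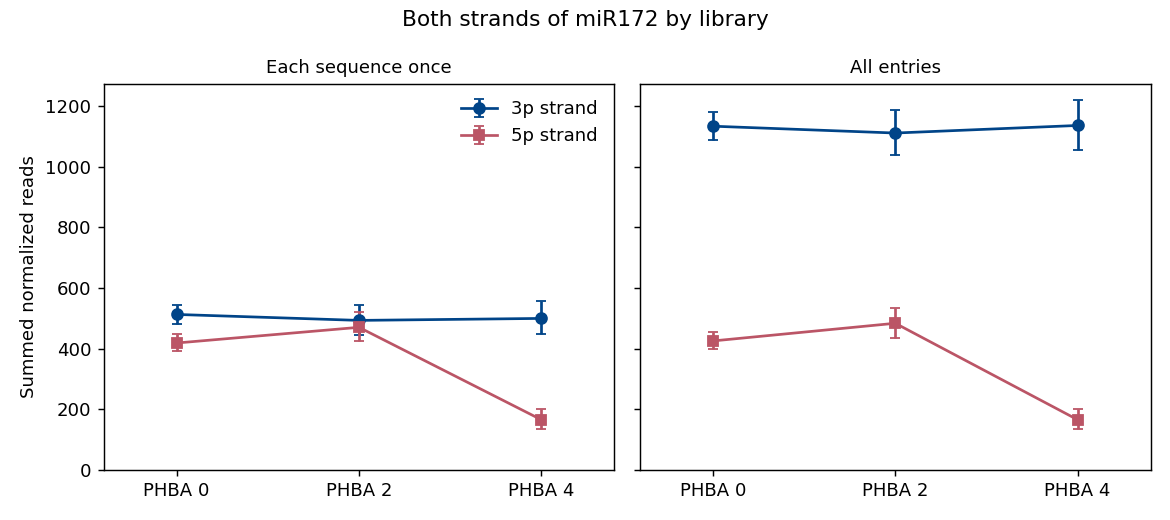
Summed normalized reads (y axis) of the 4 sequences of the 3p strand and the 5 of the 5p strand in PHBA 0, PHBA 2 and PHBA 4 (x axis, 1 library each), with each sequence counted once (left) or all entries summed (right). Bars are exact Poisson 95% intervals. The 3p strand lies between 493 and 513 (left), and the 5p strand lies at 418, 470.2 and 165.0.

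Set against PHBA 0, the 5p strand in PHBA 4 was 2.54-fold lower (2.08 to 3.12). Against PHBA 2 it was 2.85-fold lower (2.30 to 3.56). Over all entries these values were 2.58-fold (2.11 to 3.17) and 2.93-fold (2.36 to 3.66). The 3p strand in PHBA 4 was 0.974 times its PHBA 0 level (0.858 to 1.10) and 1.01 times its PHBA 2 level (0.873 to 1.18). Over all entries it stood at 1135, 1112 and 1137 normalized reads, 1.00 times (0.922 to 1.09) for PHBA 4 against PHBA 0. With every library rescaled to the same total, the log2 ratio of PHBA 4 to PHBA 0 was 0.29 for the 3p strand (0.10 to 0.47), against -0.04 as deposited, and -1.02 for the 5p strand (-1.32 to -0.73), against -1.34. That scaling moves every log2 ratio of PHBA 4 to PHBA 0 up by 0.32.

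The balance of the strands within a library does not depend on the scaling. The 3p strand held 55.1% of miR172 reads for PHBA 0 (Wilson interval 52.8 to 57.3), 51.2% for PHBA 2 (47.6 to 54.7) and 73.3% for PHBA 4 (68.9 to 77.1). Over all entries the shares were 72.7% (71.2 to 74.3), 69.7% (67.1 to 72.2) and 85.1% (82.6 to 87.3). By both counts the share was highest in PHBA 4, with an interval apart from those of the other 2 libraries. The ratio of 3p to 5p reads over all entries was 2.67 (2.47 to 2.89), 2.30 (2.03 to 2.60) and 6.89 (5.64 to 8.50).

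Summed over both strands, with the tobacco-named sequence included, miR172 stood at 931 normalized reads for PHBA 0, 963 for PHBA 2 and 682 for PHBA 4. PHBA 2 was 1.03 times PHBA 0 (0.949 to 1.13), and PHBA 4 was 1.37-fold lower than PHBA 0 (1.23 to 1.51) and 1.41-fold lower than PHBA 2 (1.25 to 1.59). Over all entries PHBA 4 was 1.17-fold lower than PHBA 0 (1.08 to 1.26). Without the tobacco-named sequence it was 1.40-fold lower (1.26 to 1.56), each sequence counted once. With equal totals its log2 ratio to PHBA 0 was -0.13 (-0.28 to 0.02), an interval that includes 0. The difference in the sum rested on ptc-MIR172e-p5, without which the log2 ratio was -0.15 in place of -0.45 as deposited.

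Of the 10 members, 5 averaged at least 10 normalized reads over the 3 libraries, ptc-miR172a, ptc-miR172d, ptc-miR172g-3p, ptc-MIR172e-p5 and ptc-miR172h-5p. A sequence past that minimum was called when (a + 1)/(b + 1), with a pseudocount of 1, differed at least 2-fold. For PHBA 2 against PHBA 0 none of the 5 was called by that rule. Over the whole set of 472 sequences, 289 passed the minimum and 26.0% of these were called, 16.3% as higher and 9.69% as lower. For PHBA 4 against PHBA 0 the rule called 2 of 5, both lower and both of the 5p strand, beside 45.0% of all tested (23.9% higher, 21.1% lower). The same 2 were called lower in PHBA 4 against PHBA 2, beside 33.6% (17.3% higher, 16.3% lower). The median log2 ratio of the 5 was -0.10, -0.53 and -0.35 in these comparisons, against -0.03, 0.01 and 0.03 over all tested. ptc-miR172h-5p, at 0 in PHBA 4, enters the medians that involve PHBA 4 only as the lowest value. With so few members past the minimum, these counts only describe the family.

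**Figure D2:**
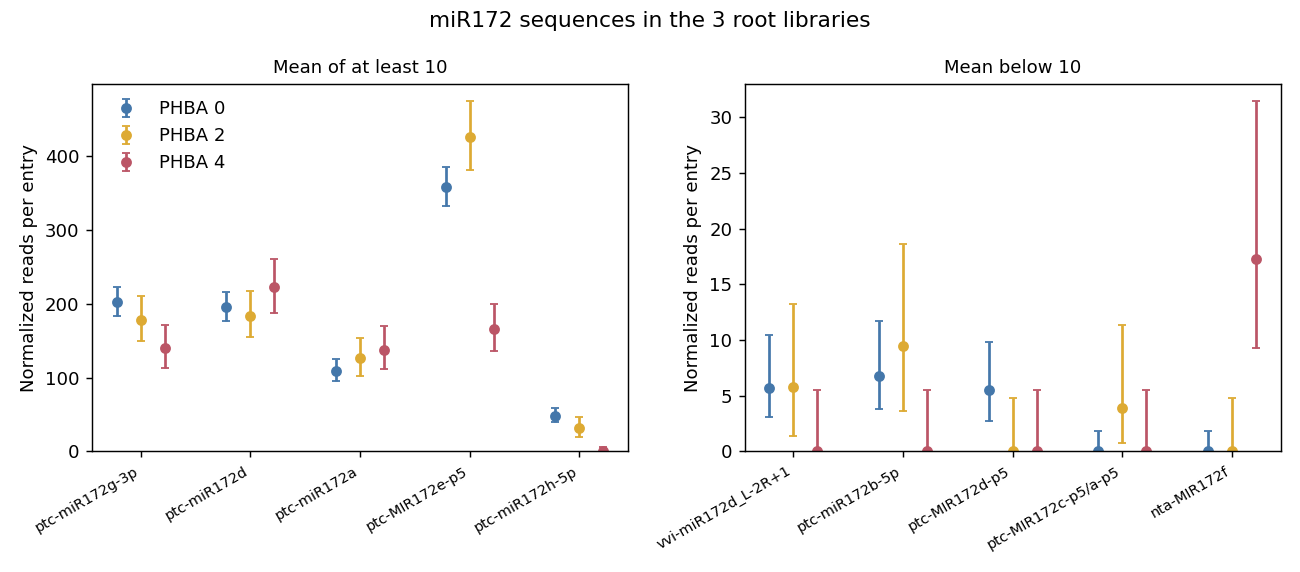
Normalized reads per entry (y axis) of each miR172 sequence (x axis) in PHBA 0, PHBA 2 and PHBA 4, for the 5 sequences past the minimum mean of 10 (left) and the other 5 (right, with a smaller scale). Bars are exact Poisson 95% intervals. ptc-MIR172e-p5 is at 358, 425 and 165.0, and in PHBA 4 the other 5p sequences are at 0.

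On the 3p strand, ptc-miR172d stood at 196 normalized reads for PHBA 0, 183 for PHBA 2 and 222 for PHBA 4. Its intervals overlapped in all 3 libraries, and PHBA 4 was 1.13 times PHBA 0 (0.932 to 1.37). With equal totals the log2 ratio was 0.50 (0.22 to 0.78). ptc-miR172g-3p, which differs from it at the last base, stood at 202, 178 and 139.9. It was 1.44-fold lower in PHBA 4 than in PHBA 0 (1.15 to 1.83), and PHBA 2 lay between them. With equal totals its log2 ratio for PHBA 4 against PHBA 0 was -0.21 (-0.55 to 0.12), against -0.53 as deposited.

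ptc-miR172a stood at 109, 126 and 138 normalized reads. The ratio of PHBA 4 to PHBA 0 was 1.26 (0.980 to 1.62), an interval that includes 1, while over its 3 entries the interval was 1.09 to 1.46. With equal totals the log2 ratio was 0.66 (0.29 to 1.02). The grapevine-named form with 1 more base was listed at 5.73, 5.82 and 0. Each counted once, it held 4.99% of reads on itself and ptc-miR172a for PHBA 0 (3.01 to 8.90) and 4.42% for PHBA 2 (1.54 to 9.65). For PHBA 4 it held 0, and the interval reached 4.01%. Over all entries it came to 23, 9 and 0 reads, against 656.6, 292 and 275.6 for ptc-miR172a.

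The make-up of the 3p strand differed at the higher dose. Of the reads on ptc-miR172d and ptc-miR172g-3p, ptc-miR172d took 49.3% for PHBA 0 (45.8 to 52.7), 50.7% for PHBA 2 (44.9 to 56.5) and 61.3% for PHBA 4 (55.1 to 67.3). The intervals of PHBA 0 and PHBA 4 do not overlap, and that of PHBA 2 overlaps both. Of the reads of the 3 sequences of 21 nt, each counted once, ptc-miR172g-3p held 39.8%, 36.6% and 28.0%, and ptc-miR172a held 21.5%, 25.8% and 27.6%. Over all entries ptc-miR172a, with 3 entries, stood at 327, 378 and 413 normalized reads, so its share would be larger. ptc-miR172g-3p, with 2, then stood at 404, 356 and 279.8, and ptc-miR172d, also with 2, at 392, 367 and 444. The comparison of shares was chosen after the values were seen. The values of these sequences are partly fractions of what appear to be shared reads, so sequences that differ by 1 base cannot be told apart with certainty.

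**Figure D3:**
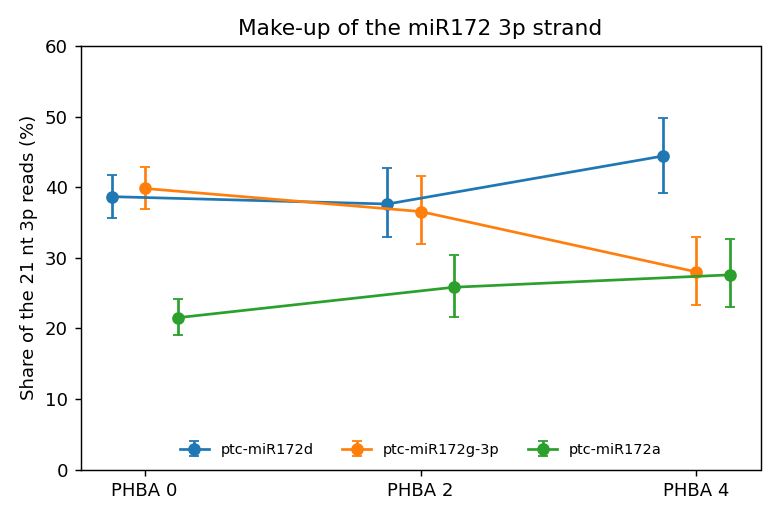
Share in percent (y axis) of each 21 nt sequence in the reads of the 3 such sequences of the 3p strand, each counted once, in PHBA 0, PHBA 2 and PHBA 4 (x axis). Bars are Wilson 95% intervals. ptc-miR172g-3p is at 39.8% in PHBA 0 and 28.0% in PHBA 4, and ptc-miR172d is at 38.7% and 44.4%.

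On the 5p strand, ptc-MIR172e-p5, an unregistered strand, had 358 normalized reads at dose 0, 425 at dose 2 and 165.0 at dose 4. It rests on 718, 329 and 110 whole reads at 1 entry. PHBA 2 was 1.19-fold higher than PHBA 0 (1.04 to 1.36), and PHBA 4 was lower than both, 2.17-fold against PHBA 0 (1.77 to 2.68) and 2.58-fold against PHBA 2 (2.07 to 3.23). As deposited the log2 ratio of PHBA 4 to PHBA 0 was -1.12, and with equal totals it was -0.79 (-1.10 to -0.50), which is under 2-fold. On the pseudocount scale as deposited, 56 of the 289 tested sequences, itself included, were as low or lower in PHBA 4 against PHBA 0.

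Per entry ptc-MIR172e-p5 had the highest value of the family in PHBA 0 and PHBA 2, and ptc-miR172d had it in PHBA 4. Over all entries ptc-miR172d, with 2 entries, stood at 392, 367 and 444 and ptc-miR172g-3p, also with 2, at 404, 356 and 279.8. ptc-miR172a, with 3 entries, then stood at 327, 378 and 413. In PHBA 0 the intervals of ptc-MIR172e-p5 (332 to 385) and ptc-miR172d (365 to 420.2) then overlapped. In PHBA 4, over all entries, these 3 sequences of the 3p strand were above ptc-MIR172e-p5 (136 to 199). It made up 85.5% of 5p reads for PHBA 0, 90.5% for PHBA 2 and all 110 of them for PHBA 4.

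The listed mature strand ptc-miR172h-5p had 48.2 normalized reads for PHBA 0, 31.5 for PHBA 2 and a listed 0 for PHBA 4. PHBA 2 was 0.653 times PHBA 0 (0.392 to 1.01). At its PHBA 0 level 32.1 reads would have been listed in PHBA 4. No fold is given as its size against 0, since a 0 in this table may stand for a value under a minimum. Its call as lower and its place in the plot of log2 ratios come from the pseudocount and its level in the other libraries, and it passed the minimum mean through those libraries alone. Over all entries, 1 of the 349 sequences above 0 in PHBA 4 was below 2.5 reads.

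The other 5p sequences were scarce. ptc-miR172b-5p was listed at 6.81, 9.48 and 0 normalized reads, ptc-MIR172d-p5 at 5.48, 0 and 0, and the sequence of ptc-MIR172c-p5 and ptc-MIR172a-p5 at 0, 3.88 and 0. None of these was above 0 in PHBA 4, and all averaged below the minimum of 10 normalized reads. Zeros were common in that library. Of the 472 sequences of the table, 123 were at 0 in PHBA 4, against 107 in PHBA 2 and 51 in PHBA 0. Without ptc-MIR172e-p5 the 5p strand summed to 121, 34.7 and 0 reads, or 60.5, 44.8 and 0 normalized reads. For 2 hairpins the names give both strands. For hairpin a, the 5p strand was at 0, 3.88 and 0 against 109, 126 and 138 for ptc-miR172a. For hairpin d, it was at 5.48, 0 and 0 against 196, 183 and 222 for ptc-miR172d. ptc-miR172a and ptc-miR172d have several entries each, and the sequence of ptc-MIR172a-p5 also bears the name ptc-MIR172c-p5. The hairpin of each entry was not tested, so these values give no strand balance for any hairpin alone.

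**Figure D4:**
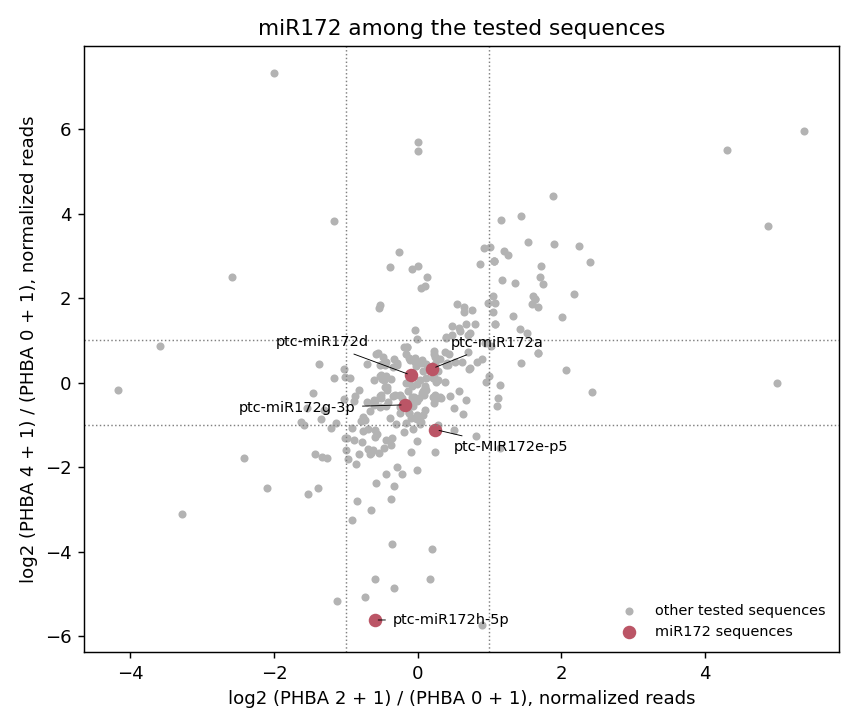
Log2 ratios with a pseudocount of 1 for PHBA 2 against PHBA 0 (x axis) and PHBA 4 against PHBA 0 (y axis) of the 289 sequences past the minimum mean of 10 normalized reads, with miR172 sequences named. Both axes share PHBA 0, and dotted lines mark a 2-fold difference. On the y axis ptc-MIR172e-p5 is at -1.11, and ptc-miR172h-5p is near the lower edge, where the pseudocount sets its place because it was listed at 0 in PHBA 4, and the 3p sequences lie between -0.53 and 0.33.

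Unregistered strands of other poplar hairpins were used as a comparison for ptc-MIR172e-p5, a choice made after its values were seen. Of 84 tested sequences of this kind outside miR172, 22 (26.2%) were at least 2-fold lower in PHBA 4 than in PHBA 0 and 6 (7.14%) were higher, beside 21.1% and 23.9% over all tested. Their median log2 ratio was -0.37. The value of ptc-MIR172e-p5 on the same scale was -1.11. Against PHBA 2, 19 of 84 (22.6%) were lower and 7 (8.33%) higher, beside 16.3% and 17.3% over all tested, with a median of -0.15, and ptc-MIR172e-p5 was at -1.36. A 2-fold lower value at the higher dose was therefore not particular to the miR172 hairpin. A list of families whose annotation is in doubt, as they may be pieces of tRNA or rRNA (miR894, miR5139, miR5368, miR6300, miR6478) went the other way. It held 0.676%, 2.08% and 3.97% of reads over the doses. Of its 25 tested sequences 20 were at least 2-fold higher in PHBA 4 than in PHBA 0 and 0 lower. Some of the 25 hold equal values, such as gma-miR6300_R+5_1 and gma-miR6300_R+5_2, so they are not all separate signals. The part of this list in the miR172 values was not tested.

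ptc-MIR172e-p5 had the highest mean of the family per entry, 316 normalized reads, and was taken as the reference for likeness, a choice that would differ over all entries. The sequences with the pattern nearest to it were found among 266 tested sequences outside the family that were above 0 in all 3 libraries. Likeness was the Euclidean distance between the 2 log2 ratios against PHBA 0, which rest on only 3 libraries. The nearest was ptc-MIR166l-p5, at 33.9, 41.4 and 16.5 normalized reads and a distance of 0.12. ptc-miR6438a followed at 42.4, 43.3 and 21 (0.26), then ptc-MIR482d-p5_1ss9AT at 711, 1009.8 and 326 (0.26). csi-MIR396b-p3_1ss21TA was at 72.8, 75.0 and 37.5 (0.27), and ptc-miR1448_L+1R+1 at 120549, 115371 and 56280 (0.31). Of these 5, ptc-MIR166l-p5, ptc-MIR482d-p5_1ss9AT and csi-MIR396b-p3_1ss21TA are named as unregistered strands. Such names were common, as poplar ones outside miR172 alone made up 84 of the 289 tested sequences. The share of such names among the 266 was not counted.

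In the phase change pathway miR156 was far more abundant than miR172, and the distance between them was widest at the higher dose. As deposited, the sums of both families differed in PHBA 4. Against PHBA 0, miR156 in PHBA 4 stood at 1.77 times and the miR172 sum of both strands was 1.37-fold lower. The 3p strand of miR172, the guide strand, was 0.974 times its PHBA 0 level (0.858 to 1.10). With equal totals the log2 ratio of the miR172 sum was -0.13 (-0.28 to 0.02), an interval that includes 0. The higher miR156 sum rested on ptc-miR156g, as the other 20 sequences of miR156 summed to 6416, 6306 and 4823 normalized reads over the doses. The 21 sequences of miR156 summed to 19610.5 normalized reads for PHBA 0, 28086 for PHBA 2 and 34782 for PHBA 4, and ptc-miR156g alone held 13194, 21779.9 and 29959 of these. There were 21.1 reads of miR156 for each read of miR172 for PHBA 0 (20.1 to 22.1), 29.2 for PHBA 2 (27.1 to 31.4) and 51.0 for PHBA 4 (46.4 to 56.0). Over all entries the ratios were 31.3, 45.9 and 72.7. Without ptc-miR156g, an alternative chosen after the values were seen, each sequence counted once, they were 6.89 (6.56 to 7.24), 6.55 (6.06 to 7.08) and 7.07 (6.40 to 7.81), with intervals that overlapped in all 3 libraries. With ptc-miR156g and against the 3p strand of miR172 alone they were 38.2 (35.9 to 40.7), 57.0 (51.5 to 63.3) and 69.6 (62.5 to 77.8), with a smaller step from PHBA 2 to PHBA 4 than against the whole family. Of the 14 tested miR156 sequences, 1 was at least 2-fold higher and 5 were lower in PHBA 4 than in PHBA 0, beside 23.9% higher and 21.1% lower over all tested. miR157 had 1 sequence, ath-miR157d_L+1, at 4.98, 5.82 and 5.25, and miR529 and miR535 had none in the table.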

How the data were processed

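Root RNA was pooled within each treatment and made into small RNA libraries by Illumina's protocols, per the labels' protocols. The submitters' processing notes name bcl2fastq 1.8.4. Aligner, counting rule, miRNA database and genome build: not given in the sources used here. No positions are given. The authors deposited, per entry, an expected count and a normalized signal. The signal is the expected count times 0.498 in PHBA 0, 1.29 in PHBA 2 and 1.50 in PHBA 4, with no length term.

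Samples were grouped by dose label, with 1 library each. Entries of a sequence hold equal values, so each sequence was counted once, and sums over all entries were an alternative. A minimum mean of 10 normalized reads set which sequences were tested for a 2-fold difference with a pseudocount of 1. Medians, ranks, likeness distances, plotted log2 ratios and those set beside a median also use that pseudocount and have no interval. Other ratios have no pseudocount. Where a ratio has an interval it is Clopper-Pearson, conditional on the sum of both expected counts, which were rounded to whole reads. Shares have Wilson intervals and levels exact Poisson intervals. There were no molecular identifiers, so reads may be copies of 1 molecule and all intervals cover counting error only. Strands were read from names or, for ptc-miR172a, ptc-miR172d and the grapevine-named sequence, from the seed shared with ptc-miR172g-3p. Named were all members, the 5 sequences nearest in pattern to the member with the highest mean per entry, and the phase change families. The members and lists were chosen with earlier results of these data known. The code for calling and intervals was run on simulated whole Poisson counts. These had no shared reads, copied molecules or spread between replicates, so the run checks the code alone. Python 3.11.15 and SciPy 1.17.1 were used.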

Additional observations from a re-analysis of the deposited data

How the results depend on the processing

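Depth limits PHBA 4 most, and members listed at 0 there give no ratio. No paired analysis was possible because each dose has 1 library, so leaving out a replicate could not be run either. The summed log2 ratio of PHBA 4 to PHBA 0 was -0.45 as deposited, -0.13 with equal totals and -0.22 with every entry counted. For PHBA 4 against PHBA 2 it was -0.50, -0.20 and -0.26. Without ptc-MIR172e-p5, chosen after seeing the data, the sums were -0.092 for PHBA 2 against PHBA 0, -0.15 for PHBA 4 against PHBA 0 and -0.058 for PHBA 4 against PHBA 2. The first of these was 0.05 with it. The sums of PHBA 2 against PHBA 0 moved by less than the counting interval under both scalings and with every entry. Median-of-ratios factors, poplar names alone, names with no suffix alone and leaving out nta-MIR172f moved none of the 3 sums beyond its counting interval. Without a minimum on the mean the members called were 2, 6 and 6 in the 3 comparisons, in place of 0, 2 and 2. With a minimum of 100 they were 0, 1 and 1, since ptc-miR172h-5p drops out. With equal totals 1 was called for PHBA 4 against PHBA 0, since ptc-MIR172e-p5 fell under 2-fold. A pseudocount of 10 changed no count. The 3p share was 55.1%, 51.2% and 73.3% with each sequence once, 72.7%, 69.7% and 85.1% with every entry, and 89.4%, 91.7% and 96.7% without ptc-MIR172e-p5. With poplar names alone it was 75.2% in PHBA 4. No alternative reversed a ratio whose interval excluded 1.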
